A study of Helianthus annuus with 15 samples.

Results

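The genes described here are the 200 sunflower (Helianthus annuus) genes whose expression varied least over 15 mRNA sequencing libraries, 3 each from root, stem, leaf, flower and axil. Axils, where leaves join the stem, hold the buds of side shoots. Values are FPKM, reads divided by the length of the gene and by the total of the library, so levels can be compared between genes. Of 63411 identifiers in the table, 57688 have names that start with HannXRQ_Chr and are called chromosomal here. Among them are 652 identifiers not placed on a chromosome. Of the 57688, 5093 had a mean between 10 and 100 FPKM in each of the 5 tissues, and they are called the level window below. The 200 members are the genes of that window with the lowest coefficient of variation (CV), the standard deviation of FPKM over the 15 libraries divided by their mean. They make up 3.93% of the window. The FPKM of all 15 libraries chose them, so their small spread is a description and not a finding. No treatment, genotype, cultivar or age is given for any tissue, and nothing in the labels tells if replicate libraries of a tissue are from different plants.

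Genes with a steady level are used as reference genes in plant expression studies: the transcript of interest is divided by that of a reference gene to correct for unequal amounts of RNA. Common choices in plants encode actin, ubiquitin, tubulin, elongation factor 1-alpha, GAPDH or a subunit of the phosphatase PP2A, proteins that most cells need for their structure, protein turnover, translation or metabolism. An FPKM value is a share of the reads of its library, so an even FPKM means an even share and not an even number of molecules per cell. The table gives no gene names for the members, and 0 of all 63411 identifiers, members or not, occur in the RefSeq gene table at hand. No function can therefore be given, and whether the common reference genes are among them was not analysed here. For the same reason the tissue labels were not checked against marker genes. In bulk tissue, fewer cells of a type and less RNA per cell cannot be told apart.

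The recovered depth was 12087704 to 14732362 reads per library. Every library holds many reads on each member: the smallest number for any member in any library was 46, and the median of the members' smallest numbers was 401. Leaf 2 and Flower 1 stood apart in that identifiers not placed on a chromosome took 0.284% and 0.276% of their reads, against 0.0445% to 0.0669% in the other 13 libraries.

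The most even gene was HannXRQ_Chr10g0282071 on chromosome 10. Its FPKM was 21.7, 23.2 and 24.2 in root, 21.8, 21.8 and 19.7 in stem, 22.2, 22.7 and 21.4 in leaf, 20.1, 20.8 and 20.8 in flower, and 23.2, 22.1 and 21.3 in axil. Its flower libraries lie below those of root, leaf and axil and overlap with stem, and the other tissues overlap with one another. Its CV was 5.56%, close to the 4.68% that counting of its 388 to 542 reads per library would give by itself. The ratio of its highest to its lowest tissue mean was 1.12.

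The next gene, HannXRQ_Chr15g0483181 on chromosome 15, had a CV of 6.18% around a mean of 29.3 FPKM. It was at 28.1, 29.5 and 31.4 FPKM in root, 28.0, 31.0 and 30.3 in stem, 30.3, 27.8 and 29.6 in leaf, 25, 29.0 and 28.2 in flower, and 32.6, 29.6 and 28.7 in axil. The lowest value, in Flower 1, was 0.854 of the gene's mean, and all 5 tissues overlap. After these genes there is a step: the third gene in the order, HannXRQ_Chr03g0090711, had a CV of 8.09%.

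The other genes among the 10 lowest had CVs of 8.31% to 8.87% and means of 13.9 to 47.9 FPKM. They were HannXRQ_Chr14g0460821, HannXRQ_Chr12g0374721, HannXRQ_Chr03g0075621, HannXRQ_Chr03g0061841, HannXRQ_Chr06g0184531, HannXRQ_Chr15g0487321 and HannXRQ_Chr14g0439351. The 10 genes lie on 6 chromosomes, and 3 of them lie on chromosome 3. HannXRQ_Chr12g0374721 had the highest level of the 10. It was at 43.2, 54.5 and 52.9 FPKM in root, 42.8, 48.5 and 53.6 in stem, 44.4, 44.1 and 47.8 in leaf, 48.0, 43.5 and 51.7 in flower, and 45.1, 47.9 and 50.5 in axil. Here the libraries of a tissue differed more than the tissue means did, with a ratio of the spread between tissues to that within tissues of 0.392. HannXRQ_Chr03g0090711 had the lowest level of the 10, from 9.84 FPKM in Stem 3 to 13 in Axil 2. Its CV was 1.07 times what counting of its reads would give, the smallest such ratio among the members.

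**Figure D1:**
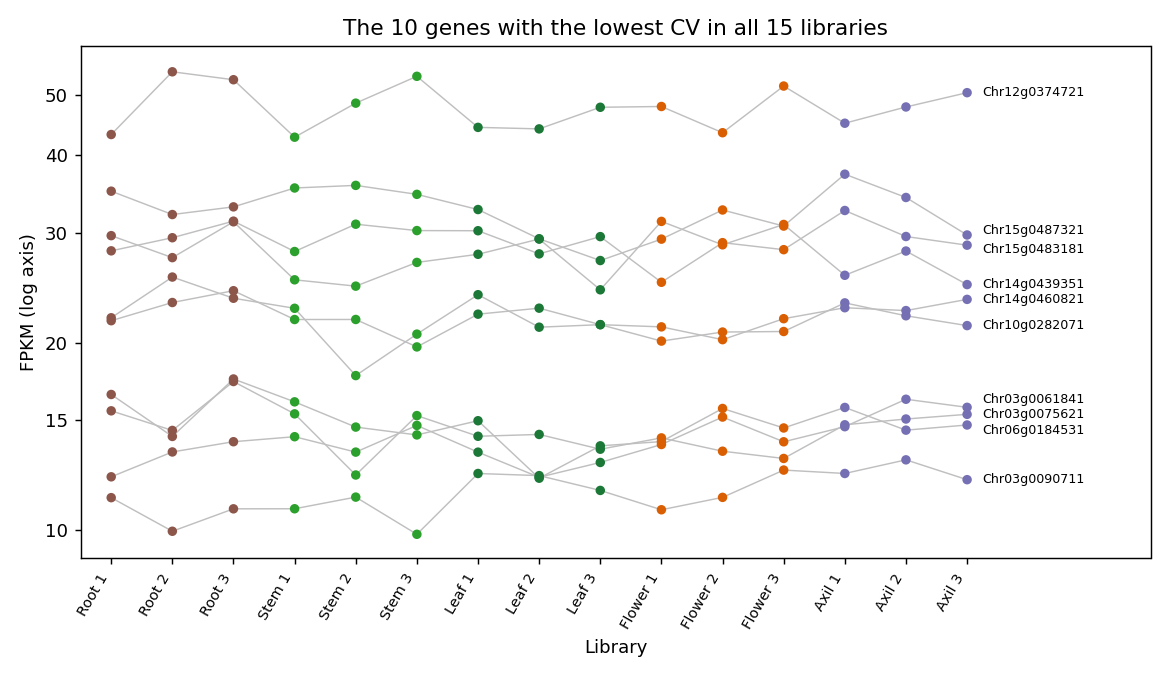
FPKM (log axis) of the 10 genes with the lowest CV in each of the 15 libraries; points are single libraries, coloured by tissue, and each gray line joins the values of 1 gene. Each gene stays in a narrow band, the narrowest being HannXRQ_Chr10g0282071 at 19.7 to 24.2 FPKM.

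Over all 200 members the CV ran from 5.56% to 13.98%, with a median of 12.2%, and only 22 lay under 10%. The median over the whole window was 28.0%. The members just inside the limit were HannXRQ_Chr08g0222701 (13.92%), HannXRQ_Chr06g0166981 (13.93%) and HannXRQ_Chr15g0496951 (13.98%). Just outside it were HannXRQ_Chr01g0009931 (13.99%), HannXRQ_Chr17g0540831 (14.00%) and HannXRQ_Chr02g0047191 (14.02%). No gap separates members from the genes that follow, so the number 200 is a convention. In each of the 200 members the highest library was less than 2 times the lowest, with a median ratio of 1.53 and a largest of 1.88. The highest tissue mean was 1.07 to 1.45 times the lowest, with a median of 1.27, against a median of 1.92 over the window.

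Levels of the members ran from 11.1 to 84.4 FPKM. The most abundant was HannXRQ_Chr13g0399591, at 88.5, 81.2 and 85.1 FPKM in root, 84.8, 94.5 and 108.6 in stem, 68.5, 91.2 and 70.5 in leaf, 95, 88.7 and 93.0 in flower, and 70.4, 74.3 and 72.2 in axil. Its axil libraries lie below those of root, stem and flower, while leaf overlaps with axil and with the other tissues. HannXRQ_Chr17g0570131 at 81.0 FPKM and HannXRQ_Chr16g0497701 at 79.5 FPKM came next. HannXRQ_Chr16g0497701 was nearly constant in flower, at 76.5, 76.3 and 76.9 FPKM, and spread from 61.5 to 91.0 FPKM in leaf. The lowest means were those of HannXRQ_Chr10g0294371 (11.1 FPKM), HannXRQ_Chr04g0110131 (11.1 FPKM) and HannXRQ_Chr03g0083441 (11.4 FPKM).

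Low levels were common among the members: their median was 20.1 FPKM, against 25.01 over the window. Genes with a mean under 15 FPKM gave 56 members out of 496 in the window (11.3%), whereas the classes of 15 to 20, 20 to 30, 30 to 50 and over 50 FPKM gave 2.75% to 3.87%. The rule itself bears on this, since a gene with a mean under 15 FPKM enters the window only if no tissue mean is under 10. With the window widened to 5 and 200 FPKM, 66 members were replaced, and 62 of the genes that came in had a tissue mean under 10 FPKM.

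Counting of reads sets a lower limit to the spread. The reads behind each value, recovered from the steps between FPKM values, would give the members a median CV of 4.39%, and the measured CV was 2.72 times that at the median. Over the window the median ratio was 6.89. The measured CV was under 2 times the counting error in 41 members (20.5%) and in 1.2% of the window. It was under 1.5 times in 10 members. After HannXRQ_Chr03g0090711, short members came closest: HannXRQ_Chr14g0436661, of 235 nt, had a counting error of 12.6% in a CV of 13.9%, and HannXRQ_Chr16g0530061, of 364 nt, had 10.9% in 11.8%. For such genes depth limits what can be said about their evenness.

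**Figure D2:**
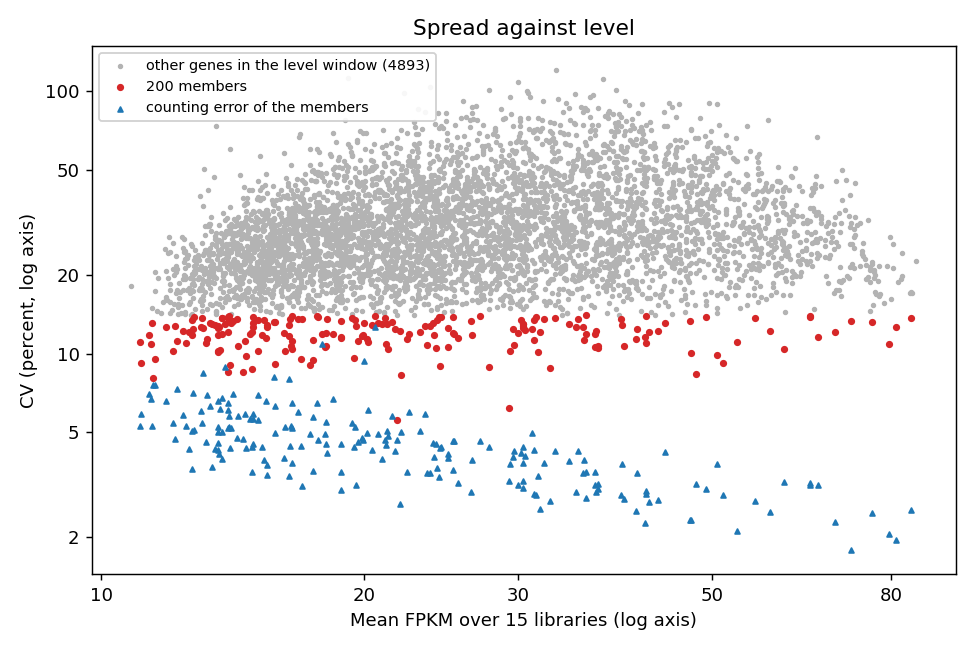
CV over the 15 libraries (percent, log axis) against mean FPKM (log axis) for the 200 members (red), the other 4893 genes of the level window (gray) and the counting error of the members (blue triangles). The members form the lower edge of the cloud at 5.56% to 13.98%, and their counting error, 1.78% to 12.6%, becomes smaller toward higher levels.

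Length and chromosome did not enter the rule, although length bears on the counting part of the CV. The median length implied by the FPKM values was 1834 nt in members and 1783 nt in the window. Short genes were fewer: 11 members (5.5%) were under 1000 nt, against 15.3% of the window. Members lie on all 17 chromosomes. Chromosome 8 gave 19 of its 263 window genes (7.22%), chromosome 17 gave 21 of 355 (5.92%) and chromosome 10 gave 20 of 367 (5.45%), while chromosome 7 gave 4 of 176 (2.27%). These are counts without a test, since genes are not independent replicates.

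Among the 200 members 2 pairs had consecutive identifiers, against 644 pairs among the 5093 genes of the window: HannXRQ_Chr04g0118851 with HannXRQ_Chr04g0118861 and HannXRQ_Chr12g0359311 with HannXRQ_Chr12g0359321. A pair counts only if both genes are members, and members are 3.93% of the window. Any smaller set of genes therefore loses pairs faster than genes, and nothing is read from the difference. Within the pair on chromosome 4, axil was the lowest tissue for one and the highest for the other. The axil mean of HannXRQ_Chr04g0118851 was 17.2 ± 0.474 FPKM, and that of HannXRQ_Chr04g0118861 was 16.6 ± 0.963 FPKM (SD, n = 3 each). On chromosome 12, axil was the highest tissue for both, at 21.2 ± 3.72 FPKM for HannXRQ_Chr12g0359311 and 15.7 ± 0.602 for HannXRQ_Chr12g0359321 (SD, n = 3).

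The next question was where the remaining spread of the members lies. Within a tissue, the median CV of the members over 3 libraries was 6.60% in flower, 6.81% in axil, 7.70% in root, 8.5% in stem and 9.66% in leaf. In the window the order was flower, axil, root, leaf and stem, from 7.75% to 16.1%. The spread between tissue means exceeded the spread within tissues in 103 of the 200 members (51.5%), against 86.5% of the window. The median CV between tissue means was 9.52% in the members and 26.3% in the window, and within tissues it was 9.10% and 14.4%. A tissue mean over 3 libraries varies less than a single library, and the spread between such means still holds part of the spread within tissues. These figures are therefore not shares of a total, and means would differ somewhat even without a difference between tissues. The rule chose a small spread over the same libraries, which also keeps the spread between tissues small. Nothing is read from the differences to the window.

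HannXRQ_Chr05g0150351 on chromosome 5 had the largest spread between tissues relative to that within them, with a ratio of 6.99. It was at 27.2, 26.3 and 26.8 FPKM in root, 22.6, 21.8 and 21.6 in stem, 23.3, 22.5 and 22.6 in leaf, 20.2, 20.5 and 20.1 in flower, and 20.08, 20.21 and 19.97 in axil. Root stood above all other libraries, and the 3 libraries of axil differed by less than those of any other tissue. HannXRQ_Chr08g0236161 on chromosome 8 followed with a ratio of 3.30. It was at 15.4, 15.1 and 15.3 FPKM in root, 17.3, 17 and 18.5 in stem, 13.5, 13.8 and 13.2 in leaf, 20.1, 18.6 and 20.1 in flower, and 17, 16.8 and 15.2 in axil. Its flower libraries lie above and its leaf libraries below all others. HannXRQ_Chr08g0233521 came next at 2.36, with 22.7 ± 0.357 FPKM (SD, n = 3) in axil, its highest tissue, and 17.1 ± 0.793 (SD, n = 3) in leaf, its lowest.

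At the other end, HannXRQ_Chr14g0450901 had tissue means of 16.7 to 17.9 FPKM and the smallest ratio, 0.281. It was at 17.3, 16.9 and 17 FPKM in root, 19.2, 15 and 19.6 in stem, 20.2, 14.7 and 16.7 in leaf, 15.6, 17.6 and 17 in flower, and 17.1, 18.2 and 17.9 in axil. All tissues overlap, and Stem 2 and Leaf 2 hold its lowest values. HannXRQ_Chr13g0390141 at a ratio of 0.287 and HannXRQ_Chr17g0537711 at 0.382 also differed more within tissues than between them.

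Some members differed between tissues in a small but separated way. In 29 members (14.5%) the 3 libraries of some tissue lay wholly above or below the other 12, which held for 55% of the 34586 genes tested. Root stood above in 8 members and below in 4 (13.1% and 11.5% of genes tested), leaf above in 1 and below in 8 (5.66% and 6.72%), and axil above in 4 and below in 2 (5.55% and 0.844%). Flower stood above in 3 and below in 0 (9.58% and 5.78%), and stem above in 1 and below in 0 (5.44% and 2.21%). Since the rule used the same values, nothing is read from the difference to the background. The tissue that stood apart depended on the scaling of the libraries: after median-of-ratios scaling, which divides each library by its median ratio to a typical library, leaf stood above in 8 members and below in 0, and axil above in 0 and below in 11. With libraries scaled to the same sum, root stood above in 36 and below in 0, and leaf above in 0 and below in 23. After quantile normalization, leaf stood above in 5 and below in 0. The level window moved the same way, so the shifts were not particular to the members. There, leaf stood above in 141 genes as deposited, 266 after median-of-ratios scaling and 216 after quantile normalization. Leaf stood below in 523 as deposited, in fewer after the first and in 248 after the second. Axil stood below in 63 as deposited and in 167 after median-of-ratios scaling. With the same sum, root stood above in 863 (567 as deposited) and leaf below in 711.

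On the deposited scale, the member farthest from the other tissues in root was HannXRQ_Chr17g0558531, at 9.31, 11.3 and 11.8 FPKM in root and at 12.3 to 16.5 in the other 12 libraries. HannXRQ_Chr09g0277281 was also low there, at 34.5 ± 3.39 FPKM (SD, n = 3) in root and 48.4 ± 2.28 (SD, n = 3) in stem, the highest tissue. In stem, HannXRQ_Chr02g0055471 (16.6 ± 2.00 FPKM; SD, n = 3) and HannXRQ_Chr15g0468061 (12.8 ± 1.37 FPKM; SD, n = 3) were lowest, both with values that overlap those of other tissues.

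In leaf, HannXRQ_Chr17g0560941 was at 28.9, 24.6 and 31.5 FPKM and HannXRQ_Chr07g0195941 at 16.5 ± 1.34 (SD, n = 3), each below all libraries of the other tissues. The Root 1 value of HannXRQ_Chr17g0560941, 31.6 FPKM, lies just above its Leaf 3 value of 31.5. In flower, HannXRQ_Chr10g0297661 stood above all others at 28.9, 28.8 and 32.3 FPKM, with a highest value elsewhere of 26.7 in Stem 1. In axil, HannXRQ_Chr14g0442661 was below all others at 11.3, 10.9 and 10.2 FPKM, with 11.9 in Leaf 1 as the nearest value. HannXRQ_Chr16g0512511 was highest in axil at 37.4 ± 4.45 FPKM (SD, n = 3) and lowest in root at 26.9 ± 1.68 (SD, n = 3).

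**Figure D3:**
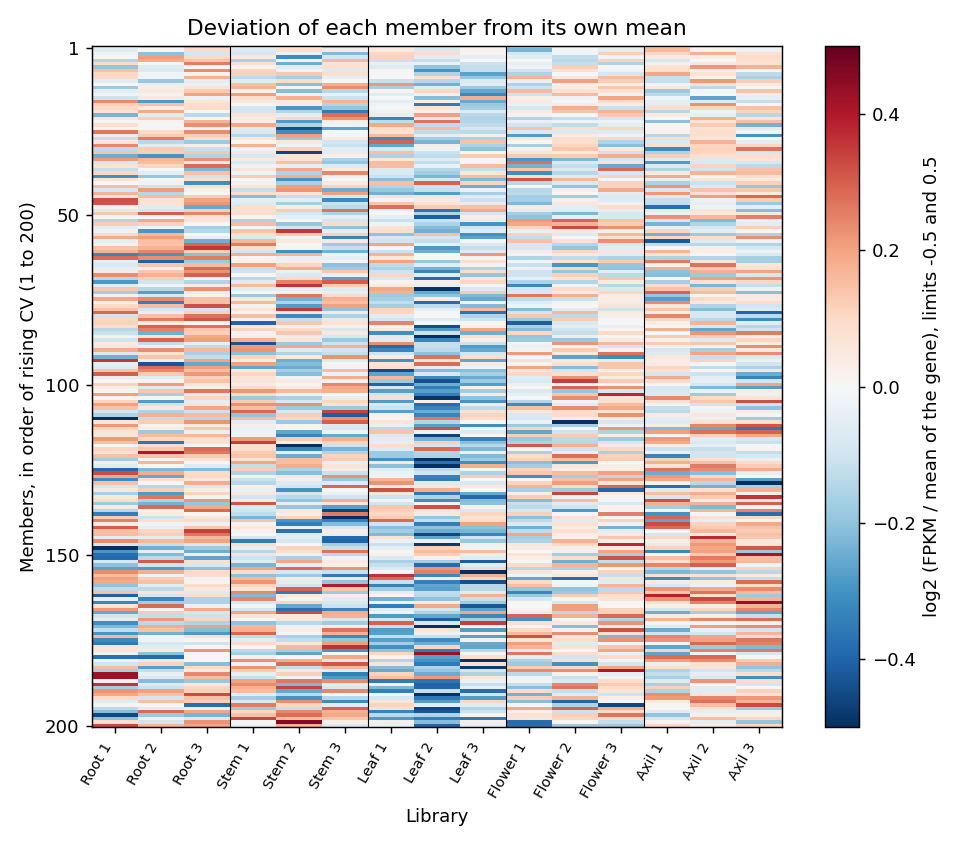
Deviation of each of the 200 members (rows, in order of rising CV) from its own mean in each of the 15 libraries (columns), as log2 of FPKM over the gene's mean; colours saturate at -0.5 and 0.5. Leaf 2 is the column with the most members below their mean, 152 of 200 as deposited (79 after median-of-ratios scaling).

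Single libraries made up much of the spread in some members. The library farthest from a member's mean on the log scale lay below it in 138 of 200 members. Leaf 2 was the farthest library in 44 of the 200 (22%), in 42 of these below the mean. On a log scale a fall in FPKM counts for more than an equal rise. The measure thus favours values below the mean, and nothing is read from the 138 or the 42. Leaf 2 was also the farthest library in 17.8% of the window. The farthest value of any member was that of HannXRQ_Chr13g0394341 in Leaf 2, at 11.8 FPKM or 0.641 of its mean, while Leaf 1 and Leaf 3 were at 19.3 and 19.5 FPKM. HannXRQ_Chr16g0513971 was at 8.97 FPKM in Stem 2 and at 12.4 to 16.9 in the other 14 libraries. HannXRQ_Chr05g0158571 was at 13.1 FPKM in Axil 3 and at 17.8 to 22.9 elsewhere. Choosing the members again without Leaf 2 kept 169 of the 200, and choosing them without both Leaf 2 and Flower 1 kept 160.

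Small shifts were shared by many members. The median of log2 FPKM over the gene's mean was -0.133 in Leaf 2, -0.0769 in Leaf 3 and -0.0477 in Leaf 1, and between -0.0337 and 0.0733 in the other 12 libraries. By tissue means, leaf was the lowest tissue in 88 of 200 members (44%) and the highest in 13. Root was the highest in 59 (29.5%), axil in 55 (27.5%), flower in 38 (19%) and stem in 35 (17.5%). Over the window these shares were 26.7%, 26.8%, 17.9% and 19.4%, close to those of the members. As deposited, leaf was the lowest tissue in 36.6% of the window and the highest in 9.25%.

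In the members, the direction of this shift depended on the scaling. Median-of-ratios factors rest on the 28796 rows above 0 in all libraries. The log2 factors were -0.118, -0.197 and -0.202 for the leaf libraries and 0.174, 0.161 and 0.0663 for the axil libraries. After it, leaf was the highest tissue in 77 members and the lowest in 8, and axil was the lowest in 86 and the highest in 5. The median offset of leaf, relative to the mean of the 5 tissue means, went from -0.0881 to 0.0826 and that of axil from 0.0276 to -0.107 (log2). After quantile normalization leaf was the highest tissue in 53 members and the lowest in 18, and with libraries scaled to the same sum it was the lowest in 113. Over the whole window the median offset of leaf stayed below 0 under all 3 scalings, at -0.0687 after median-of-ratios scaling, -0.126 after quantile normalization and -0.334 with the same sum, against -0.245 as deposited. Leaf was the lowest tissue in 18.6% of the window and the highest in 17.3% after median-of-ratios scaling, and in 23.4% and 13.7% after quantile normalization. With the same sum it was the lowest in 44.0% of the window. Axil was the lowest tissue in 16.8% of the window and the highest in 17.3% after median-of-ratios scaling. The same factors computed from the members alone were smaller, from -0.128 in Leaf 2 to 0.0768 in Root 3. They follow the deposited FPKM by construction, because the members were chosen for being even on that scale.

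**Figure D4:**
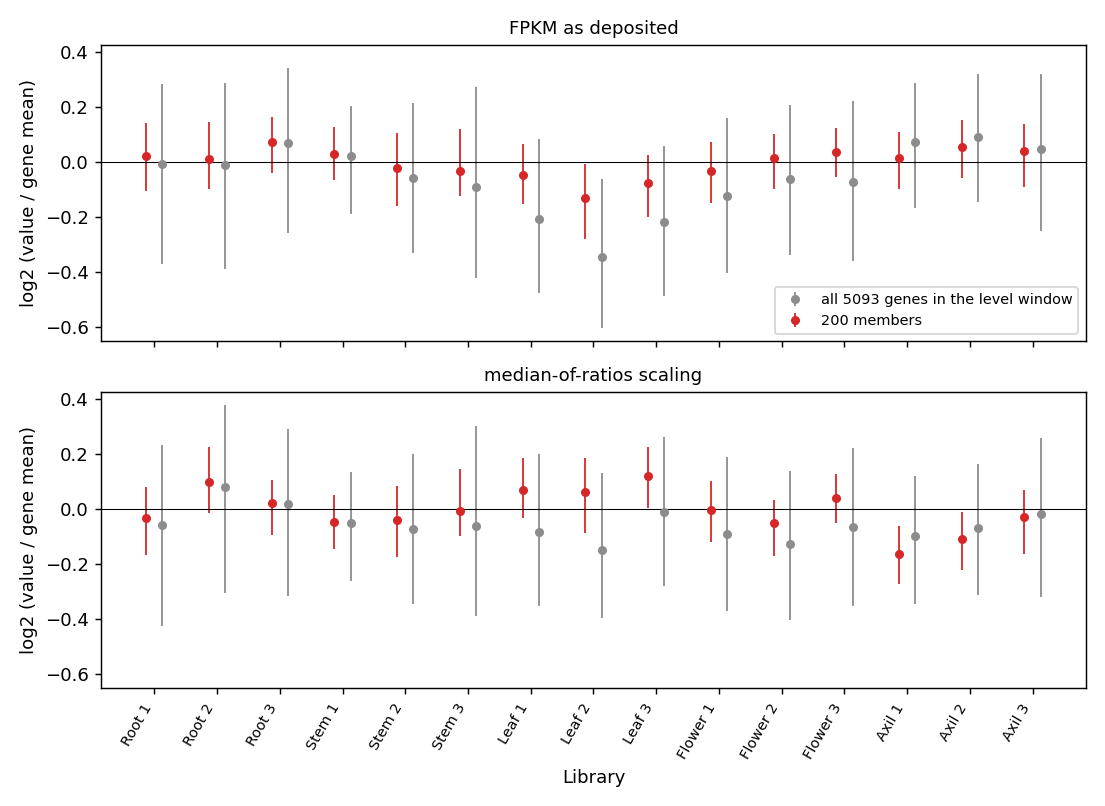
Median (points) and interquartile range (bars) of log2 (value / gene mean) in each library, for the 200 members (red) and all 5093 genes of the level window (gray), as deposited (top) and after median-of-ratios scaling (bottom). The leaf medians of the members lie below 0 as deposited and above 0 after scaling, while those of the window stay below 0, at -0.0841, -0.146 and -0.0104 after scaling.

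The scaling also decided which genes counted as most even. Of the 200 members, 144 were chosen again after quantile normalization, 120 after scaling libraries to the same sum and 111 after median-of-ratios scaling. There were 63 members chosen under all 3, and 54 of these were also chosen when any single library was left out. The 10 genes with the lowest CV were all among the 54. Their order changed: after median-of-ratios scaling HannXRQ_Chr03g0061841 came first with a CV of 6.37%, followed by HannXRQ_Chr15g0487321 with 6.63%, and HannXRQ_Chr10g0282071 was in place 25 with 9.51%. HannXRQ_Chr03g0061841 was at 12.2, 13.3 and 13.9 FPKM in root, 14.1, 13.3 and 14.7 in stem, 13.3, 12.2 and 12.8 in leaf, 13.7, 15.2 and 13.9 in flower, and 14.7, 16.2 and 15.7 in axil as deposited. On that scale its lowest tissue mean was in leaf and its highest in axil, the tissues with the lowest and the highest scaling factors. The 111 members kept had a median ratio of leaf to the other tissues of 0.889, against 0.997 for the 89 lost, a difference that the scaling fixes, since its factors raise leaf.

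To measure evenness in libraries that did not take part in the choice, the rule was applied to 10 libraries and the CV taken over the 5 left out, 1 per tissue. With the libraries numbered 1 left out, the 200 genes chosen had a median CV of 11.9% in the libraries used and 13.7% in those left out. Without the libraries numbered 2 these were 11.2% and 15.7%, and without those numbered 3 they were 11.6% and 14.9%. All genes of the corresponding windows had medians of 27.2%, 29.6% and 30.3% in the left-out libraries. Of the 200 genes chosen, 198, 194 and 198 lay below that median, and 172, 166 and 170 lay in the lowest 25% of the window. The largest CV in left-out libraries was 35.3%, 38.4% and 41.9%. The 3 choices shared 151, 142 and 140 genes with the 200 members, and 83 genes were in all 3. The left-out libraries are from the same tissues on the same deposited scale, and the labels do not tell if they are from other plants. Evenness can therefore carry over to them. The counts are a description, since genes are not replicates.

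**Figure D5:**
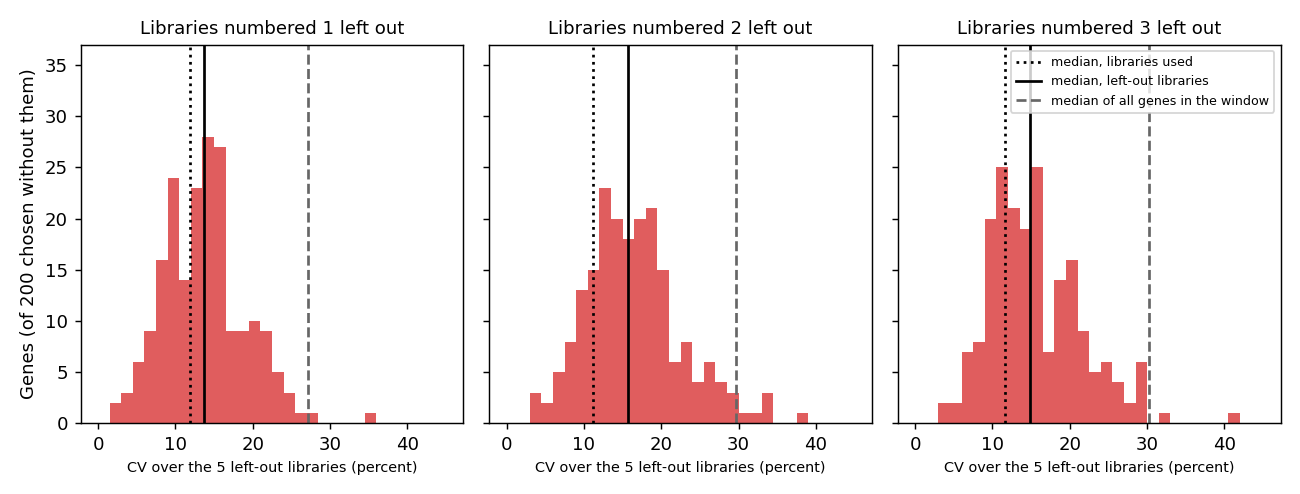
Number of genes by CV over the 5 left-out libraries (percent), for the 200 genes chosen on the other 10, with the libraries numbered 1, 2 or 3 left out in turn. Lines mark the median in the libraries used (dotted), in the left-out ones (solid; 13.7%, 15.7% and 14.9%) and of all genes of the window in the left-out ones (dashed).

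The members also passed through the tests fitted across all genes with limma on log2(FPKM + 1), a scale that slightly understates differences at these levels. At a Benjamini-Hochberg adjusted p under 0.05, 53 of the 200 members differed among the 5 tissues in the F test, against 82.9% of the 34586 genes tested. The largest log2 difference of any member between tissues was 0.51, so 0 members reached the threshold of 1 in any of the 10 pairs, with or without adjustment, against 63% of the genes tested. Limma's voom on the recovered reads also called 0 members with that threshold, against 71.5% of genes tested. In its F test it called 45 members, against 82.1% of genes tested. In the fit on log2(FPKM + 1) without a fold threshold, 96 members differed in at least 1 pair, against 89.8% of genes tested. At an unadjusted p under 0.05 the members were 142. For pairs, p was adjusted within each pair and not across the 10. A call in any of the 10 pairs is thus easier to reach than a call in 1 given pair. The rule used the same libraries, so nothing is read from these counts. The count of 53 was 33 without Root 1, 35 without Root 3, 30 without Axil 2, and 102 with libraries scaled to the same sum. In these settings 80.3%, 79.9%, 79.5% and 84.5% of all genes tested were called.

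By pair and without a fold threshold, root and leaf gave the most members, 38 (32 higher in root), against 51.2% of genes tested. After median-of-ratios scaling they gave 24, of which 1 was higher in root (49.3% of genes tested). Leaf and axil gave 28 members, 26 of them higher in axil, against 38.4% of genes tested. After that scaling they gave 35, with 0 higher in axil (32.2% of genes tested), whereas libraries scaled to the same sum gave 60, all higher in axil (42.2%). Stem and leaf gave 19, 16 of them higher in stem (42.5% of genes tested), and 24 with 1 higher in stem after median-of-ratios scaling. Leaf and flower gave 18, 16 of them higher in flower (45%), and 20 with 2 higher in flower after it. For these 4 pairs with leaf, quantile normalization also turned the majority, with 7 of 24 higher in root, 3 of 18 in axil, 3 of 17 in stem and 2 of 18 in flower. With libraries scaled to the same sum, all 102 members that differed between root and leaf were higher in root, and all 26 between leaf and flower were higher in flower.

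Pairs without leaf gave 11 to 22 members. Stem and flower gave the fewest, 11 (5 higher in stem), against 30.1% of genes tested. Higher in stem were 3 of 8 after median-of-ratios scaling, 0 of 7 with the same sum and 4 of 7 after quantile normalization. Root against stem, flower and axil gave 22 each (54.6%, 59.9% and 42.2%), with 12, 11 and 8 higher in root. After median-of-ratios scaling 16 of 25, 13 of 23 and 30 of 33 were higher in root, and with libraries scaled to the same sum 72 of 73, 55 of 55 and 20 of 24. After quantile normalization these were 18 of 26, 24 of 30 and 17 of 28. Flower and axil gave 18 (48.7%), 10 of them higher in flower (19 of 20 after median-of-ratios scaling), and stem and axil 13 (40.3%), 3 of them higher in stem (13 of 14). With the same sum 2 of 20 were higher in flower and 0 of 27 in stem, and after quantile normalization 10 of 23 and 5 of 16. The share of all genes tested that differed ranged over the 10 pairs from 30.1% to 59.9% as deposited, 30.4% to 60.3% after median-of-ratios scaling, 28.8% to 61.2% with the same sum and 30.6% to 60.5% after quantile normalization. The pairs share libraries with one another. The median absolute log2 difference of the members was 0.114 to 0.166 over the 10 pairs, against 0.377 to 0.740 over all genes tested. The rule favours small differences, so nothing is read from this contrast. Median-of-ratios factors differed between leaf and axil libraries by more than these medians of the members, from 0.184 to 0.375 (log2).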

How the data were processed

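The authors deposited 1 FPKM value per gene and library, beside their own mean FPKM for each tissue. Counting with HTSeq 0.6.1 appears in the submitters' processing notes. Aligner, build and gene models: not given in the sources used here. Per the labels' protocols, oligo(dT) beads captured the mRNA, and the adaptors carried molecular identifiers. Whether these were used in counting is not stated, so counting errors cover counting only. A further 16 columns with values, beside the table, were not used. Whole reads were recovered from the FPKM steps for 45944 of 46035 rows with reads in at least 3 libraries (tolerance 1e-06 reads plus 1e-09 of the number of reads; implied lengths whole within 1e-06 nt), including all 5093 genes of the level window. The steps were checked on simulated data.

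Tests used limma 3.58.1 (R 4.3.3; trended eBayes, all 15 libraries, no covariate) on log2(FPKM + 1). A gene was tested if 3 or more libraries reached 1 FPKM. Values were handled with pandas 2.3.3 and numpy 2.4.6 in Python 3.11.15 and drawn with matplotlib 3.10.9. Members and lists were chosen with earlier results of these data known. Named genes are those at the ends of each ordering (CV, level, tissue ratio, spread between against within tissues, single library, neighbours). HannXRQ_Chr14g0436661 and HannXRQ_Chr16g0530061 were named after their values were seen. P-values measure the spread between libraries, which may be technical.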

Additional observations from a re-analysis of the deposited data

How the results depend on the processing

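Alternatives covered the pseudocount, the filter, scaling, a replicate block, the window, the measure of spread and leaving out each library. Voom on recovered reads, leaving out Flower 1 and Leaf 2 together, and subtracting the counting variance were chosen after the data were seen. Apart from the CVs of named genes, 170 of 192 recomputed values stayed within 1.5 times a count or within the spread between replicates, and 778 of 836 CVs of named genes did. Most of these values leave out 1 library, which mostly changes a CV little, so the totals say little about the scalings. The CV of HannXRQ_Chr10g0282071, 5.56% as deposited, was 9.51% after median-of-ratios scaling and 10.8% with the same sum, both beyond that spread. After quantile normalization it was 7.43%, within the spread. The members called in the F test were 102 with libraries scaled to the same sum, 29 without Flower 1 and Leaf 2, and 30 to 53 when 1 library was left out. Of all genes tested, 84.5%, 79.6% and 79.2% to 83.3% were called in these settings. With adjusted p alone, 96 members differed in at least 1 of the 10 pairs, against 89.8% of genes tested. In the other settings, and without any single library, 0 reached the fold threshold, against 35.9% to 71.5% of genes tested. The rule kept the spread of every member small, so nothing is read from these counts of 0, which the total of 170 includes.

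The median CV of the members was 14.6% with libraries scaled to the same sum, and 11.7% to 12.4% without 1 library. Members chosen again were 133 by the CV of tissue means, 111 after median-of-ratios scaling and 120 after scaling to the same sum, and 169 to 189 without 1 library. With libraries scaled to the same sum the log2 offsets were 0.193 for root, -0.0727 for stem, -0.175 for leaf, -0.0359 for flower and 0.0692 for axil. After quantile normalization they were 0.0248 in leaf, -0.0388 in flower and -0.0189 in axil, and after median-of-ratios scaling 0.0826 in leaf and -0.107 in axil. Without 1 library they ranged from -0.105 to -0.0630 in leaf and from 0.0234 to 0.0372 in axil. After median-of-ratios scaling the median CV in left-out libraries was 12.8% for number 1 and 13.4% for number 3. The causes of these shifts were not tested.

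No pairing of libraries by replicate number was seen in these values. Deviations of same-numbered libraries correlated at -0.337 to 0.196 over 30 pairs, and for 2 of the 15 the highest mean correlation was with their own number. Whether same-numbered libraries share a plant or a batch cannot be told from this. With a replicate block, 42 members were called in the F test and 0 with the fold threshold, against 81.2% and 62.7% of genes tested.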

Other observations

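Subtracting the variance that counting gives before ordering the genes, an alternative chosen after the data were seen, kept 189 of the 200 members. The scalings kept fewer, 111 to 144. Leaving out the upper limit of the window kept 193 members, and measuring spread by the standard deviation of log2(FPKM + 1) kept 185. Leaf 2, the library most often farthest from a member's mean, also had the largest share of reads on unplaced identifiers, 0.284%. Flower 1, with 0.276%, was the farthest library in 6 members. The part of these reads in the spread of the members was not tested.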
